A study of Mus musculus with 8 samples.

Results

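Klf1, Gata1, Tal1, Lmo2, Ldb1, Nfe2, Bcl11a, Gfi1b, Zfpm1 and Foxo3 encode transcription factors and adaptors that build, or work beside, the DNA-binding complex of developing red cells. All probe sets of the array whose single gene symbol in the platform annotation was among these 10 genes were taken, which gave 19 of 45101 probe sets. RNA came from whole blood of 4 female C57BL/6J mice exposed to restraint stress (RST) and 4 female C57BL/6J Control mice, with 1 Affymetrix mouse expression array per mouse. The mice are given as 6 to 8 weeks old, which the methods state for their purchase, before acclimation and restraint. RST mice were held in ventilated tubes for 6 h a day over 7 days, Control mice had food and water withheld in those hours and were left alone otherwise, and blood was taken by cardiac puncture on Day 7. For each array 30 ng of total RNA from all blood cells together was amplified and labelled as cDNA, so more or fewer cells of a type and more or less RNA per cell cannot be told apart.

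GATA1 and the basic helix-loop-helix factor TAL1 bind DNA side by side in erythroid cells, and the adaptors LMO2 and LDB1 bridge them and join distant enhancers to promoters. KLF1 binds CACCC boxes of globin, heme and membrane genes, NFE2 drives late globin and platelet genes, and GFI1B and ZFPM1 (FOG-1) work with GATA1 in repression and in red cell and megakaryocyte formation. BCL11A silences globin genes of earlier development and is also needed for B cell development, and FOXO3 drives antioxidant and organelle-clearance genes in maturing red cells while acting in many other cells. Klf1, Gata1, Tal1, Nfe2, Gfi1b and Zfpm1 are called erythroid members here, although several are also made in megakaryocytes, eosinophils or mast cells. Lmo2, Ldb1, Bcl11a and Foxo3, which lymphoid and other cells also use, are called shared members.

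Promoter sequence (RefSeq, build GRCm38.p6, 250 bases before to 50 after the start) was held for 8 of the 10 genes, in 11 entries, with none used for Lmo2 or Nfe2. The entries of Klf1 (chr8:84901732-84902031, plus strand), Gata1 (chrX:7967861-7968160, minus strand), Bcl11a (chr11:24080445-24080744, plus strand) and Foxo3 (chr10:42276646-42276945, minus strand) are shown because these genes carry the contrasts described below. Capitals mark a GATA site (AGATAA or TGATAA) or a CACCC box (CCNCNCCC), each read on both strands, and overlapping matches run together.
Klf1: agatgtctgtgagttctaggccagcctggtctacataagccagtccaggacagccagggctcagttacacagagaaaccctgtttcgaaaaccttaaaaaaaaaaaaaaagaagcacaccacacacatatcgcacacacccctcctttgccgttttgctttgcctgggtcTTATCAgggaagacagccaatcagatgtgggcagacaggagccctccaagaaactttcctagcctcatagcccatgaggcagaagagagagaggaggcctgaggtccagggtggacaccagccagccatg
Gata1: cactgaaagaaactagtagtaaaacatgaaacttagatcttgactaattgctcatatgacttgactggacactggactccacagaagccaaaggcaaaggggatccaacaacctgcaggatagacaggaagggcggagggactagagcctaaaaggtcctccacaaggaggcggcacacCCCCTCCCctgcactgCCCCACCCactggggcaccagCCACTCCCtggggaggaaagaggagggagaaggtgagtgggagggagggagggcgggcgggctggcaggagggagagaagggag
Bcl11a: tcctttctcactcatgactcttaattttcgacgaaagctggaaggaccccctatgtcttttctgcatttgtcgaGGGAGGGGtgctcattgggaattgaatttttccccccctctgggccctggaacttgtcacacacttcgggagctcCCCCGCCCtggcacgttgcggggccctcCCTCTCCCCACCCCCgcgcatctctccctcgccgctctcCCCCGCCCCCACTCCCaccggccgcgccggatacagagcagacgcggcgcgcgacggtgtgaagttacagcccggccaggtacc
Foxo3: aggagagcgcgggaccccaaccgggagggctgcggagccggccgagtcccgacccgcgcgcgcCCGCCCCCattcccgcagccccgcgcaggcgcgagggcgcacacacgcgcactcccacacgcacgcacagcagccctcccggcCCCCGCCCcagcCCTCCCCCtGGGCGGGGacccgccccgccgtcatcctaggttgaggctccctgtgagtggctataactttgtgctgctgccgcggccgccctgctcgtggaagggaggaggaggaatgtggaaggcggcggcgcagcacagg

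The Klf1 stretch held 1 GATA site, 80 bases before the start, and 0 CACCC boxes. The Gata1 stretch held 3 CACCC boxes and 0 GATA sites, Bcl11a held 8 and Foxo3 held 4 CACCC boxes, also with 0 GATA sites. Among all 11 entries of the members, 4 (36.4%) held a GATA site, in Klf1, Gfi1b, Tal1 and Ldb1, against 18.6% of the 32851 promoters in the table. A CACCC box was present in 9 entries (81.8%), against 49.5% of all promoters. Ldb1 and Tal1 each gave more than a single entry. The GC content of the entries ran from 44.3% (Gfi1b) to 75% (Foxo3), against a median of 52.7% over all promoters. The part of base content in the share with this C-rich box was not tested. These counts describe letters only and say nothing about occupancy.

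The authors' log2 array values were compared with limma over the 25084 probe sets that lay above the array median in at least 2 of the 4 arrays of a group. The median difference between RST and Control was -0.20 on the log2 scale, and 34.7% of tested probe sets had a higher mean in RST, a share that became 55.1% when each array was centred on its median, 48.4% with quantile normalization and 12.9% with scaling to the hybridization spikes. RST mouse 4 stood apart, with a median of 4.31 over tested probe sets against 4.82 to 4.92 in the other RST mice and 4.89 to 5.10 in Control mice, and it was the lowest of the 8 arrays for 41.5% of tested probe sets. The mean of 18 hybridization control probe sets was lowest in Control mice 1 and 2, at 11.93 and 11.90, against 12.35 to 12.74 on the other arrays. No tested probe set passed an adjusted p of 0.05 with a fold above 1.5 in limma (Benjamini-Hochberg, smallest adjusted p = 0.32), while 3337 (13.3%) reached that fold and an unadjusted p under 0.05. A trended and robust prior in limma called 36 probe sets (0.144%) at an adjusted p of 0.05, none of them a member.

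Of the 19 member probe sets, 16 passed the filter and represented all 10 genes, and 0 of these 16 passed the adjusted threshold (limma, smallest adjusted p = 0.35). At an unadjusted p under 0.05 in limma, 2 were higher in RST, beside 3.01% of all tested probe sets, and both measure Foxo3. A single one was lower in RST, a Bcl11a probe set, beside 10.6% of all tested probe sets. Groups did not overlap, with RST above Control, for 3 member probe sets (Lmo2 and a pair of Foxo3 probe sets) beside 2.23% of all tested, and for 0 with RST below Control beside 5.76%. At the brightest tested probe set of each gene, 6 of the 10 genes had a higher mean in RST, against 32.4% of the 11762 genes tested. The median log2 difference of the member genes was 0.32, and that of all genes was -0.24. The 95% intervals of all 10 genes at these probe sets included 0.

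**Figure D1:**
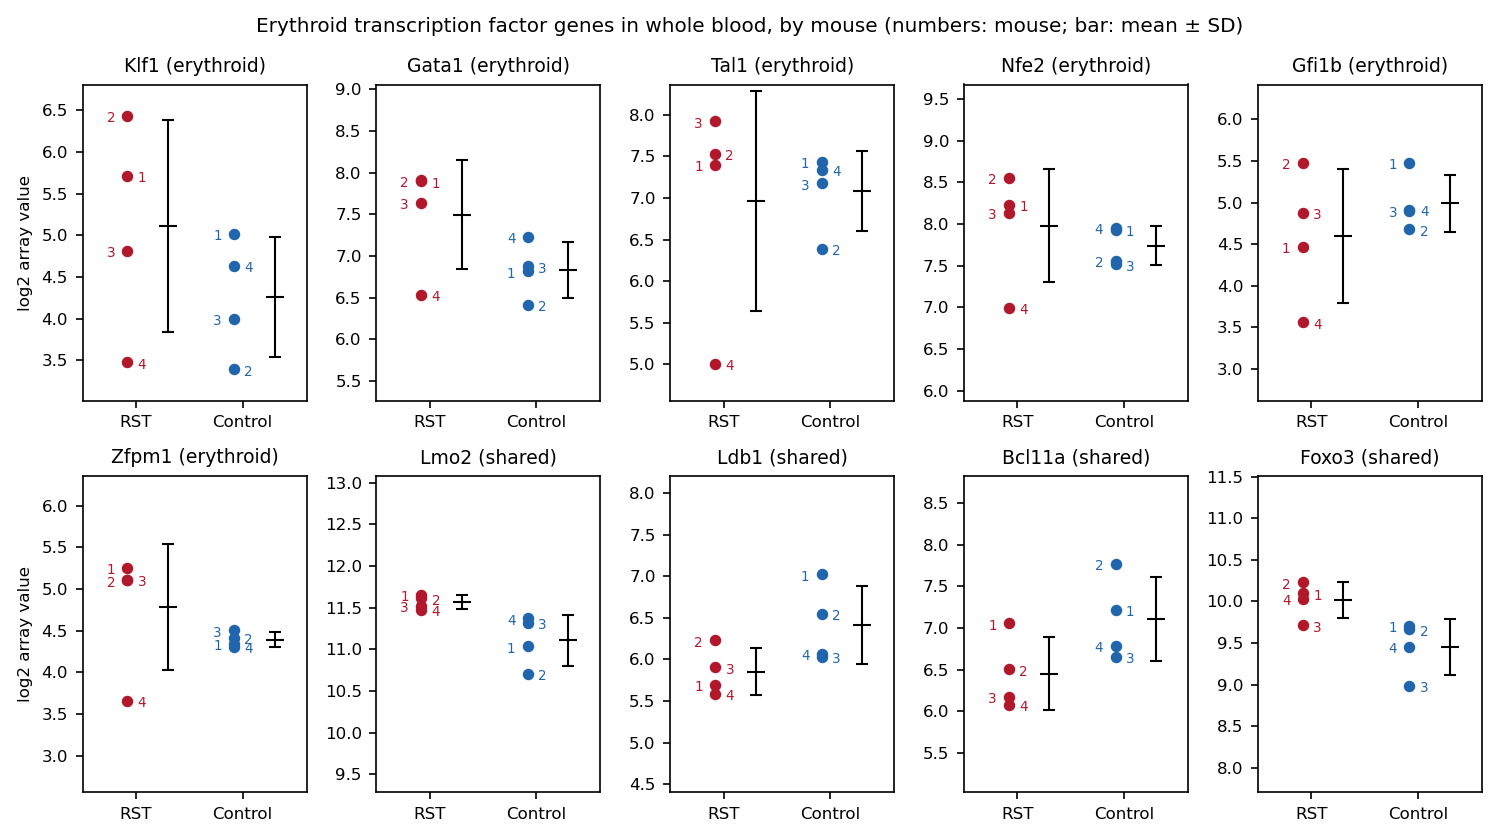
Log2 array values of each member gene at its brightest tested probe set, for 4 RST mice (left, red) and 4 Control mice (right, blue), with the mouse number beside each point and the mean ± SD beside the points; every panel spans the same log2 range. RST mouse 4 is the lowest RST point for all 6 erythroid members, while the groups separate for Lmo2 and Foxo3 and overlap elsewhere.

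Among the erythroid members, Klf1, the activator of globin and red cell membrane genes, had the largest mean difference. Its log2 values were 5.71, 6.43, 4.81 and 3.47 in RST mice 1 to 4, against 5.02, 3.39, 4.00 and 4.63 in Control mice 1 to 4. RST mice 1 and 2 lay above every Control mouse, whereas RST mouse 4 lay beside the lowest Control mouse, so the groups overlapped. The signal was low in RST mouse 4 and Control mouse 2, whose array medians over all probe sets were 3.19 and 3.31. Klf1 averaged 5.11 ± 1.27 in RST and 4.26 ± 0.72 in Control mice (SD, n = 4 each), a log2 difference of 0.85 ± 0.57 (SE, 1.80-fold, 95% interval -0.41 to 2.10). This difference was smaller than the SD among RST mice. Its p was 0.166 unadjusted and 0.50 adjusted in limma, and 0.286 in the exact two-sided permutation test. Without RST mouse 4 the difference was 1.39 with an unadjusted p of 0.0138 and an adjusted p of 0.36 in limma, and without RST mouse 2 it was 0.41.

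Gata1, the zinc finger factor that the complex is built around, had the same order of RST mice. It measured 7.90, 7.91, 7.64 and 6.53 in RST mice, against 6.81, 6.41, 6.88 and 7.23 in Control mice. RST mice 1, 2 and 3 were above every Control mouse and RST mouse 4 was below all but Control mouse 2. Its mean log2 difference was 0.66 ± 0.35 (SE, 1.58-fold, 95% interval -0.10 to 1.42), with an adjusted p of 0.40 in limma and p = 0.114 in the exact two-sided permutation test. Leaving out RST mouse 4 gave 0.98 (limma, unadjusted p = 0.0044, adjusted p = 0.31).

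Tal1, the helix-loop-helix partner of GATA1, had nearly equal group means and, at the probe sets shown, the widest RST spread of the members. Its values were 7.40, 7.53, 7.92 and 5.0 in RST mice, against 7.43, 6.38, 7.17 and 7.33 in Control mice. RST mouse 4 alone lay far below both groups, 2.61 below the mean of the other RST mice. The log2 difference was -0.12 ± 0.56 (SE, 95% interval -1.33 to 1.10, limma adjusted p = 0.94), and it turned to 0.15 with each array centred on its median, to 0.18 after quantile normalization and to 0.54 without RST mouse 4.

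Nfe2, which encodes the haematopoietic subunit of a factor that drives globin and platelet genes, had 8.23, 8.56, 8.14 and 6.99 in RST mice, against 7.93, 7.55, 7.52 and 7.95 in Control mice. RST mice 1, 2 and 3 exceeded all Control mice and RST mouse 4 lay below all of them. The log2 difference was 0.24 ± 0.34 (SE), smaller than the SD of 0.68 among RST mice (limma, unadjusted p = 0.49, adjusted p = 0.76, exact two-sided permutation test, p = 0.514). It was -0.093 when arrays were scaled to the hybridization spikes.

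Zfpm1, the GATA1 cofactor FOG-1, showed the same arrangement. It measured 5.26, 5.11, 5.11 and 3.66 in RST mice, against 4.34, 4.41, 4.5 and 4.30 in Control mice, with RST mice 1, 2 and 3 above and RST mouse 4 below the narrow Control range. For this probe set the log2 difference was 0.39 ± 0.35 (SE, limma adjusted p = 0.61), and 0.77 without RST mouse 4 (limma, unadjusted p = 0.0069, adjusted p = 0.33). A second Zfpm1 probe set, 1423603_at, lay below the filter at a mean of 2.90 in RST and 2.55 in Control mice.

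Gfi1b, a repressor required for red cell and platelet formation, was the erythroid member with the lowest mean difference. It had 4.47, 5.47, 4.87 and 3.56 in RST mice, against 5.47, 4.68, 4.90 and 4.91 in Control mice. Only RST mouse 2 reached the top of the Control range, and RST mice 1 and 4 lay below it. The log2 difference was -0.40 ± 0.39 (SE, limma adjusted p = 0.64) and shrank to -0.05 without RST mouse 4.

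The 6 erythroid members had RST mouse 4 as their lowest RST value in every case, by 1.28 (Gata1) to 2.61 (Tal1) below the mean of the other RST mice. Klf1, Gfi1b and Zfpm1 had low signals there, 3.47, 3.56 and 3.66, against an array median of 3.19 over all probe sets. That array was low in general in the range where these genes lie: its median shortfall was 0.56 over 10846 tested probe sets with a mean level of 4 to 6 and 0.81 over 4709 probe sets at 6 to 8, but 0.29 over 1464 probe sets at 8 to 10 and 0.07 over 674 brighter ones. After each array was centred on its median, the erythroid members still had shortfalls of 0.72 (Gata1) to 2.05 (Tal1) in RST mouse 4, and 2 of them (Tal1 and Klf1) lay below the 5th percentile of all genes, -1.11. The shared members at their brightest probe sets lay 0.06 to 0.57 above the other RST mice on that scale. Those of Lmo2 and Foxo3 lie above a level of 8, where the shortfall before centring was small. Dimmer tested probe sets of shared members fell short as well, Foxo3 1450236_at by 1.26 and Bcl11a 1456632_at, 1419406_a_at and 1426552_a_at by 0.99, 0.91 and 0.20. Foxo3 1434832_at and Bcl11a 1453814_at lay 0.56 and 0.25 above. The part of array quality in the low erythroid values of this mouse was not tested.

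Among the shared members, Lmo2, the LIM-only bridge between GATA1-TAL1 and LDB1, was separated between groups. It measured 11.65, 11.61, 11.52 and 11.47 in RST mice, against 11.03, 10.71, 11.31 and 11.37 in Control mice. All 4 RST mice lay above all 4 Control mice, RST mouse 4 included, and the RST values spanned a narrow range. Lmo2 had a log2 difference of 0.46 ± 0.25 (SE, 1.37-fold, 95% interval -0.09 to 1.01). The exact two-sided permutation test gave p = 0.0286, the smallest that 4 against 4 allows, and the limma adjusted p was 0.42.

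Ldb1, the LIM-domain binding protein that pairs with LMO2 and loops chromatin, went the other way. Its values were 5.70, 6.23, 5.91 and 5.59 in RST mice, against 7.02, 6.55, 6.03 and 6.07 in Control mice. RST mice 1, 3 and 4 lay below every Control mouse and RST mouse 2 lay within the Control range. Ldb1 differed by a log2 of -0.56 ± 0.30 (SE, 95% interval -1.22 to 0.09, limma adjusted p = 0.41, exact two-sided permutation test, p = 0.114).

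Foxo3, the forkhead factor of late red cell maturation and many other cells, was measured by 3 probe sets, all with a higher mean in RST. The brightest, 1434831_a_at, had 10.10, 10.23, 9.71 and 10.03 in RST mice, against 9.71, 9.66, 8.99 and 9.46 in Control mice. The groups did not overlap, although RST mouse 3 and Control mouse 1 were nearly level. The log2 difference was 0.56 ± 0.27 (SE, 1.48-fold, 95% interval -0.02 to 1.15), with an adjusted p of 0.38 in limma and p = 0.0286 in the exact two-sided permutation test.

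The other Foxo3 probe sets repeated the direction. Probe set 1434832_at had 10.15, 10.29, 9.57 and 10.00 in RST mice, against 9.52, 9.5, 9.04 and 9.48 in Control mice, again without overlap, and a log2 difference of 0.62 ± 0.26 (SE, limma unadjusted p = 0.0379, adjusted p = 0.35). Probe set 1450236_at, with a low signal, had 5.15, 5.70, 4.97 and 3.45 in RST mice, against 4.19, 3.36, 3.23 and 4.24 in Control mice. There RST mice 1, 2 and 3 lay above every Control mouse and RST mouse 4 within the Control range, for a log2 difference of 1.06 ± 0.46 (SE, limma unadjusted p = 0.0392, adjusted p = 0.35), and 1.52 without RST mouse 4. RST mouse 4 was thus 1.82 below the mean of the other RST mice at this low-signal probe set, and differed from that mean by 0.02 at 1434831_a_at.

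Bcl11a, the globin-switching repressor that B cells also need, was measured by 7 probe sets, of which 5 passed the filter, all 5 with a lower mean in RST. The brightest, 1457072_at, had 7.06, 6.5, 6.17 and 6.08 in RST mice, against 7.22, 7.77, 6.66 and 6.78 in Control mice. RST mice 2, 3 and 4 lay below every Control mouse, and RST mouse 1 lay among them. The log2 difference was -0.65 ± 0.33 (SE, 95% interval -1.38 to 0.07, limma adjusted p = 0.39, exact two-sided permutation test, p = 0.114).

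Of the remaining Bcl11a probe sets, 1456632_at had 5.79, 5.91, 5.77 and 4.27 in RST mice, against 7.27, 6.83, 5.73 and 5.89 in Control mice. Control mice 1 and 2 stood highest and RST mouse 4 lowest, for a log2 difference of -1.0 ± 0.45 (SE, limma unadjusted p = 0.0472, adjusted p = 0.36). The log2 differences of 1419406_a_at, 1426552_a_at and 1453814_at were -0.79, -0.53 and -0.17, with adjusted p of 0.39, 0.60 and 0.83 in limma, and that of 1453814_at became 0.10 when each array was centred on its median. The 2 dim probe sets below the filter, 1447334_at and 1447335_x_at, had log2 differences of -0.07 and 0.34.

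**Figure D2:**
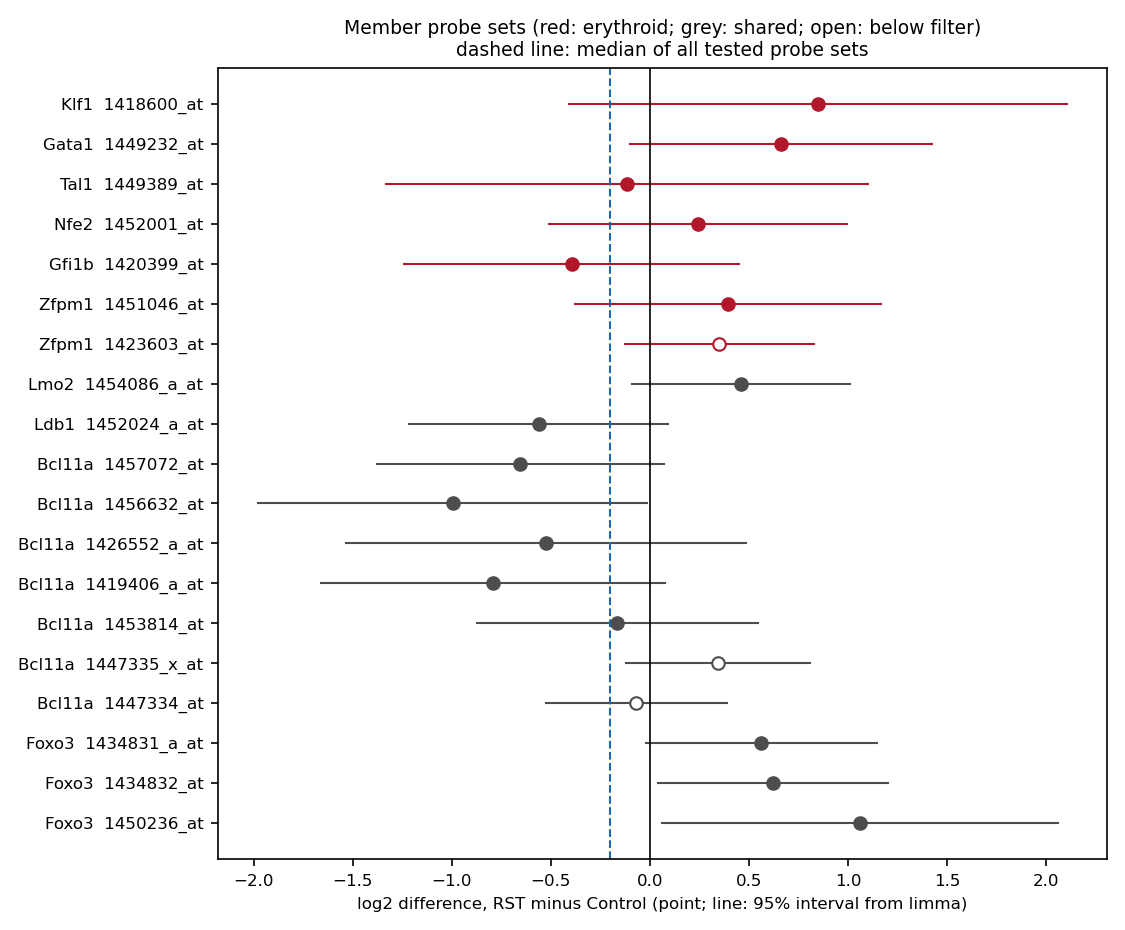
Log2 difference between RST and Control mice (horizontal axis, points) with limma's 95% interval (lines) for all 19 member probe sets, erythroid members in red and shared members in grey, open points below the filter. The dashed line marks the median of all tested probe sets, -0.20. The 3 Foxo3 probe sets lie to the right of 0 and the 5 tested Bcl11a probe sets to the left, and most intervals cross 0.

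A difference between genes on the same array cancels that array's common offset, so the members were also set against each other within each mouse, each gene as its log2 value minus its mean over the 8 arrays. An offset that changes with signal level does not cancel. The median log2 difference between RST and Control was -0.39 over tested probe sets with a mean level of 6 to 8, -0.12 at 8 to 10 and 0.07 above 10. The mean over the 6 erythroid members was 0.48, 0.82, 0.40 and -1.15 in RST mice 1 to 4, against 0.15, -0.55, -0.19 and 0.04 in Control mice. The mean over the 4 shared members was 0.13, 0.15, -0.17 and -0.21 in RST mice, against 0.25, 0.18, -0.25 and -0.08 in Control mice. The erythroid mean thus stood above the Control range in RST mice 1, 2 and 3 and below it in RST mouse 4. Single genes differed, as Gfi1b had 0 RST mice above the highest Control mouse and Klf1 and Tal1 had 2 each. The mean of the shared members, which hold genes of opposite direction, varied little. Erythroid minus shared members was 0.35, 0.67, 0.57 and -0.94 in RST mice, against -0.10, -0.72, 0.06 and 0.12 in Control mice, a difference of 0.32 between group means that is smaller than the SD of 0.75 among RST mice.

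Contrasts with Bcl11a and within the adaptor pair were wider. Foxo3 minus Bcl11a was 0.08, 0.77, 0.59 and 0.99 in RST mice, against -0.46, -1.06, -0.63 and -0.28 in Control mice, so that all RST mice lay above all Control mice by this measure. Lmo2 minus Ldb1 was 0.76, 0.18, 0.42 and 0.69 in RST mice, against -1.19, -1.04, 0.08 and 0.10 in Control mice, also without overlap but with Control mice 1 and 2 far below the other Control mice. Gata1 minus Bcl11a was 0.45, 1.02, 1.09 and 0.07 in RST mice, against -0.79, -1.74, -0.16 and 0.07 in Control mice, where RST mouse 4 and Control mouse 4 were level. Klf1 minus Bcl11a overlapped, with -0.51 in RST mouse 4 below Control mice 1 and 4 at -0.10 and -0.05. Lmo2 and Foxo3 have brighter probe sets than Ldb1 and Bcl11a, so an offset that changes with signal level stays in their contrasts. Its part in the separation was not tested. All these contrasts are descriptions, since the pairs were set with the genes' earlier results known.

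**Figure D3:**
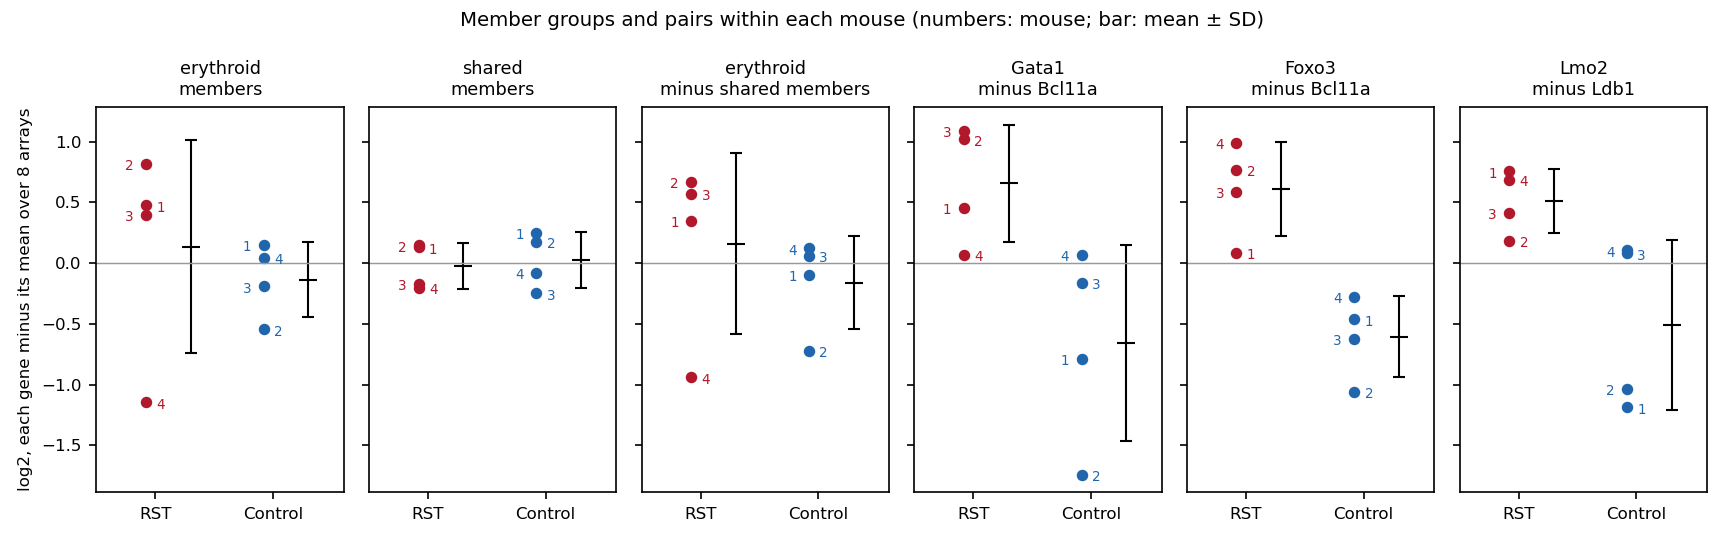
Mean of the erythroid members, mean of the shared members, their difference and 3 pairs of genes within each mouse (vertical axis, log2, each gene minus its mean over 8 arrays), for 4 RST mice (left, red) and 4 Control mice (right, blue), with mouse numbers and the mean ± SD. RST mouse 4 is lowest for the erythroid members at -1.15 and highest for Foxo3 minus Bcl11a at 0.99.

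The members were also compared with each other across mice, on values centred per array and taken as deviations from the group means, over 45 pairs. All 15 pairs of erythroid members had a positive r, with a median of 0.78 and a range of 0.46 to 0.92. The 24 pairs of an erythroid with a shared member had a median r of -0.23, and 3 of them were positive. The closest pair was Klf1 with Nfe2 (r = 0.92, rho = 0.88, exact permutation p = 0.0069 and 0.0174, n = 8 arrays), with r = 0.88 without the 2 mice farthest from the median of Klf1. Gata1 with Nfe2 had r = 0.86 and rho = 0.83 (exact permutation p = 0.0122 and 0.026, n = 8), again 0.86 without the 2 farthest mice. No pair passed the adjustment over the 45 pairs (smallest adjusted p = 0.27 for r and 0.39 for rho, exact permutation). Without RST mouse 4 the median r of the 15 erythroid pairs was 0.48, with a range of -0.48 to 0.89, and that of the 24 mixed pairs turned to 0.045, with a range of -0.84 to 0.94.

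As a description of likeness, the 3 genes with the highest Pearson r to each member over the 8 centred arrays were taken from the 11761 other genes. The highest r picked from so many genes over 8 arrays is high by selection, at least 0.962 for every member. It carries no test of a relation. Lmo2 lay closest to Car2, a red cell carbonic anhydrase, with r = 0.996, then Rmnd5a and Slc4a1, the band 3 anion exchanger of the red cell membrane, at 0.995 and 0.993. Gata1 lay closest to Rnmt, Nipa1 and Pcx (r of 0.995 to 0.989), Klf1 to Mpst, Elovl7 and Slc16a6 (0.977 to 0.973), and Nfe2 to Hspa4l, Auh and Ppox, a heme synthesis enzyme (0.967 to 0.961). Gfi1b lay closest to Snap47, Lcn2, a neutrophil granule gene, and Fmc1, with r of 0.975, 0.969 and 0.960. Foxo3 lay closest to BC005537, Uhmk1 and Ehd4, Tal1 to Inf2, Nipal3 and Mast2, and Zfpm1 to Smyd4, Stx7 and Pias4. Ldb1 lay closest to Adsl, Tbrg1 and Lztr1 and Bcl11a to Fgd3, Axl and Padi2.

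The known erythroid target genes of GATA1, TAL1 and KLF1 had higher means in RST with few exceptions. Of 39 listed, 31 had a probe set named for the gene alone and 29 passed the filter. Of these, 27 had a higher mean and 2 a lower mean in RST blood. Icam4, among the higher means, passed the filter only through RST mice, so the filter favoured its direction. At an unadjusted p under 0.05 in limma, 13 had a higher mean against 2.92% of all tested genes, with 0 lower against 13%. The median log2 difference was 0.63, against -0.24 over all genes, and for 12 of the 29 all RST mice lay above all Control mice, against 2.37% of all genes. Of the separated targets, E2f2, Tspan33, Slc4a1, Car2, Slc25a37, Hba-a2, Cd24a and Fech had a mean level above 10. The median difference over all tested probe sets above that level was 0.07, against -0.39 at 6 to 8. The part of signal level in these shares was not tested. Ank1, which encodes the ankyrin of the red cell membrane skeleton, had a log2 difference of 1.33 ± 0.33, and E2f2, a cell cycle factor of erythroid precursors, 1.01 ± 0.26 (SE, limma adjusted p = 0.32 each, and 0.044 for E2f2 with the trended and robust prior). Both separated the groups, with Ank1 at 7.65, 8.17, 7.47 and 7.10 in RST mice against 6.22, 5.59, 6.55 and 6.72 in Control mice. The lower means were those of Uros, a heme synthesis enzyme, and Ermap, a red cell surface protein, at -0.29 and -0.08. The number at an unadjusted p under 0.05 with a higher mean was 17 without RST mouse 4, against 5.39% of all genes, and 6 without Control mice 1 and 2, against 0.799%, where the median was 0.35.

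Partners and cofactors of the complex were mixed. Of 28 listed, 26 passed the filter, 9 had higher means and 17 lower means in RST blood, 0 were higher and 5 lower at an unadjusted p under 0.05 in limma, against 2.92% and 13% of all genes, and the median was -0.25, next to the -0.24 of all genes. For 4 of the 26 all RST mice lay below all Control mice, against 6.57% of all genes. Ssbp3 and Ssbp2, which encode proteins that bind and stabilize LDB1, had log2 differences of 0.55 ± 0.26 and 0.74 ± 0.35 (SE, limma adjusted p = 0.38 each). Myb, a factor of progenitors and lymphocytes, and Tcf3, which encodes the E-protein partner of TAL1 and a B cell factor, both had -1.18 (SE 0.28 and 0.36, limma adjusted p = 0.32 each) with RST mice below all Control mice. At that unadjusted p, 4 partners were higher and 3 lower without RST mouse 4 (median -0.13), against 5.39% and 6.83% of all genes. Without Control mice 1 and 2, 0 were higher and 1 lower (median 0.03), against 0.799% and 2.36% of all genes.

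Relatives in the same gene families had a median of -0.55, with 5 higher and 10 lower means among 15 that passed the filter, near the 32.4% higher of all genes. The median was -0.19 without RST mouse 4 and -0.22 without Control mice 1 and 2, where those of all genes were -0.11 and -0.14. Foxo4 measured 10.7 to 11.0 in RST mice and 9.84 to 10.5 in Control mice without overlap (log2 difference 0.73 ± 0.26, SE, limma adjusted p = 0.32), the same side as Foxo3. Foxo1, a forkhead factor of lymphocytes, had -0.96 ± 0.38 (SE, limma adjusted p = 0.34). Zfpm2 had 0.52 and Klf13 -0.63, with adjusted p of 0.50 and 0.37 in limma. Zfpm2, with a low signal, passed the filter only through RST mice. Nfe2l3, also dim and among the lower means, passed it only through Control mice. The filter thus favoured the direction of both. Target genes of FOXO3 were mixed, with 9 higher and 11 lower means among 20, where 32.4% of all genes had a higher mean. They had a median of -0.16, and 2 each way at an unadjusted p under 0.05 in limma, against 2.92% higher and 13% lower of all genes. For 3 of the 20 all RST mice lay above all Control mice, against 2.37% of all genes, and for 0 below, against 6.57%. Without RST mouse 4 the median of the FOXO3 targets was 0.02. Without Control mice 1 and 2 it was 0.05, with 0 at that p either way, against 0.799% higher and 2.36% lower of all genes. Sod2, mitochondrial superoxide dismutase, and Pink1, a mitophagy kinase, had 0.86 and 0.79, while Sesn1 and Sesn3, the sestrins, had -0.82 and -1.01 (limma adjusted p = 0.32 each).

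**Figure D4:**
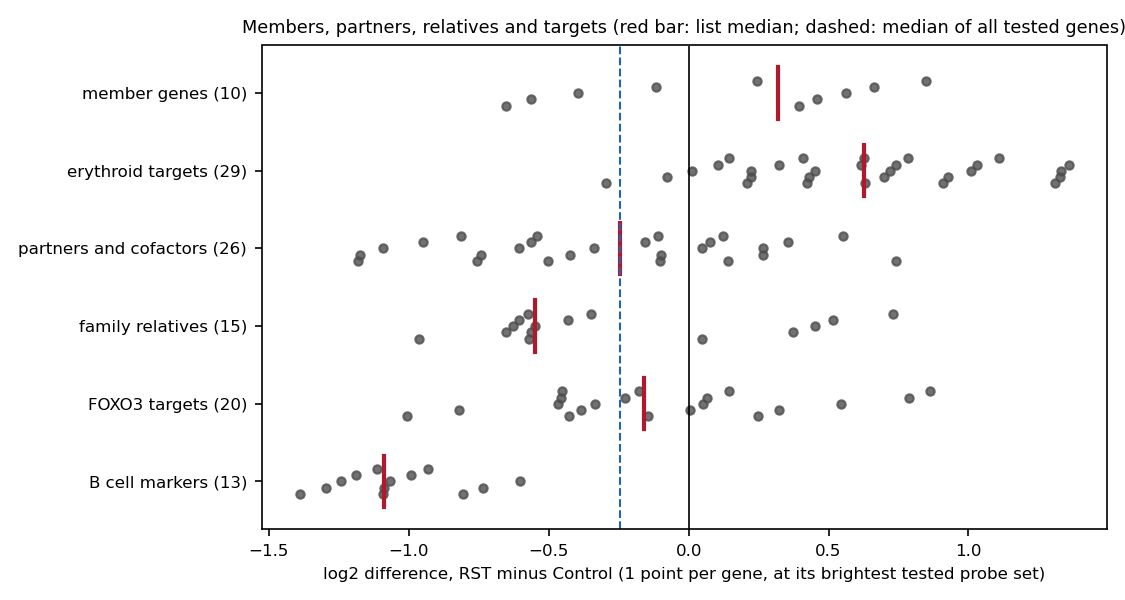
Log2 difference between RST and Control mice (horizontal axis) for each gene at its brightest tested probe set, 1 point per gene, in the members, their erythroid targets, partners, family relatives, FOXO3 targets and B cell markers, with red bars at list medians and a dashed line at the median of all tested genes, -0.24. Erythroid targets centre on 0.63, B cell markers on -1.09, and the members run from -0.65 (Bcl11a) to 0.85 (Klf1), with a median of 0.32.

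Cell type markers also differed in mean between the mixed blood samples. Of 9 tested reticulocyte and erythroid markers, 8 had a higher mean in RST, against 32.4% of all genes, and 4 an unadjusted p under 0.05 in limma, against 2.92%. Without Control mice 1 and 2 that number was 2, against 0.799%. All 9 also stand in the list of erythroid targets, so they repeat part of that result, and their mean level relative to all arrays was -0.19 to 0.64 in RST mice and -0.91 to 0.04 in Control mice. All 13 tested B cell markers had a lower mean in RST, 12 at an unadjusted p under 0.05 in limma against 13% of all genes, with levels of -0.72 to -0.33 in RST mice and -0.05 to 0.96 in Control mice, the highest in Control mice 1 and 2. Without those Control mice 3 B cell markers were lower at that p, against 2.36% of all genes, and the median log2 difference was -0.62, against -1.09 with all mice. Of 10 tested platelet markers, 8 had a higher mean, and 0 had an unadjusted p under 0.05. Of 6 progenitor markers, Kit, Cd34 and Epor lay below the filter, and Car1, Gata2 and Myb had log2 differences of 1.03, 0.05 and -1.18 (limma unadjusted p = 0.040, 0.91 and 0.00123). Where 67.6% of all genes had a lower mean in RST, T cell markers did in 9 of 9, plasmacytoid dendritic cell markers in 6 of 6, NK cell and monocyte markers in 6 of 7 each, neutrophil markers in 6 of 9, and eosinophil, basophil and mast cell markers in 7 of 8, so that the neutrophil share was that of all genes. Of the eosinophil, basophil and mast cell markers, Prg2, Epx, Siglecf and Cpa3 passed the filter only through Control mice. The filter itself thus favoured their lower RST means. The part of cell composition in the values of Gata1, Lmo2, Bcl11a and the other members was not tested by these marker counts.

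Over 30 relations of a member with the mean of the erythroid, platelet or B cell markers, as deviations from group means, no relation passed the adjustment (smallest adjusted p = 0.26, exact permutation). Gata1 had r = -0.85 and rho = -0.74 with the B cell markers (exact permutation p = 0.0139 and 0.0625, n = 8 arrays), and r = -0.78 without the 2 farthest mice. With the erythroid markers Gata1 had r = 0.77 and rho = 0.69 (exact permutation p = 0.0469 and 0.0972, n = 8), which became 0.43 without the 2 farthest mice, Control mice 1 and 2. The shared member Lmo2 had the highest r with the erythroid markers, 0.81 (rho = 0.79, exact permutation p = 0.0764 and 0.123, n = 8). It was 0.06 without those Control mice. Tal1 had r = -0.61 and rho = -0.5 with the B cell markers (exact permutation p = 0.0174 and 0.111, n = 8), and -0.80 without those Control mice. Bcl11a had r = 0.57 with the B cell markers (rho = 0.74, exact permutation p = 0.184 and 0.0625, n = 8), and 0.08 without them. Ldb1 had a higher r with these markers, 0.73 (rho = 0.79, exact permutation p = 0.102 and 0.108, n = 8). It was 0.48 without Control mice 1 and 2.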

How the data were processed

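Whole-blood RNA of 8 mice was hybridized to Affymetrix mouse expression arrays. The deposited values are log2 signals per probe set, which the authors background-corrected, normalized and summarized (RMA and Affymetrix Expression Console 1.2.0.20 in the submitters' processing notes, GSRMA in Partek in the methods), and array medians still differ. Probe sets were named from the platform annotation, with 64 control probe sets left out. Differences between RST and Control mice came from limma (version 3.58.1, R version 4.3.3) without covariates, with Benjamini-Hochberg adjustment over all tested probe sets, a filter that replaced presence calls, and two-sided exact permutation tests over the 70 splits for single values. The script was checked on simulated data. Arrays have no read depth, and 4 mice per group limit the precision. Every member probe set is named, with the 2 list genes of smallest p in each direction and the 3 most alike genes. The members, lists and contrasts were chosen with earlier results of these data known. Groups share replicate numbers, and the labels do not say whether these pair mice. Deviations of same-numbered mice correlated at -0.24, 0.42, 0.05 and 0.20, which cannot settle it, and the main fit did not pair them. Other filters, scalings, priors, weights, a floor, the methods' own test, covariates and leave-one-out fits were tried.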

Additional observations from a re-analysis of the deposited data

Results flagged for a closer look

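In 52 groups of 4 mice, 1 for each member probe set or within-mouse measure and treatment, 4 held a mouse whose gap to its neighbour took up more of the group's range than Dixon's critical value of 0.829 allows. Chance alone gives about 1 in 20 groups. Bcl11a probe set 1456632_at was 4.27 in RST mouse 4, against 5.77 in the next RST mouse, a gap of 0.92 of the range. Zfpm1 probe set 1451046_at was 3.66 in RST mouse 4, against 5.11 in the next RST mouse, a gap of 0.906 of the range. Foxo3 probe set 1434832_at was 9.04 in Control mouse 3, against 9.48 in the next Control mouse, a gap of 0.911 of the range. The dim Bcl11a probe set 1447335_x_at, below the filter, was 2.58 in Control mouse 2, against 2.09 in the next Control mouse, a gap of 0.843 of the range.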

How the results depend on the processing

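No member passed an adjusted p of 0.05 under any of the 20 alternatives. Over all probe sets, 35 passed the adjusted p and fold thresholds with a trended and robust prior in limma and 0 otherwise. The 3337 probe sets with both a fold above 1.5 and an unadjusted p under 0.05 became 5539 with array weights, 2091 with the hybridization controls as a covariate, 884 without Control mice 1 and 2 together (an alternative chosen after seeing the data), and 1742 to 4952 when single mice were left out, the lowest counts being those without Control mouse 1 (1742) or Control mouse 2 (1765). Members at that p were 2 higher and 1 lower. The higher count was 7 with each array centred on its median, 4 without the filter, after quantile normalization, with the trended and robust prior and with array weights, 1 without Control mice 1 and 2, and 0 with scaling to the hybridization controls, and ranged over 0 to 6 when single mice were left out, with 6 without RST mouse 4. The lower count was 4 with array weights, 3 with the replicate block, and 0 without the filter, after quantile normalization, with each array centred, with the methods' test, with the hybridization covariate and without Control mice 1 and 2, and ranged over 0 to 2 when single mice were left out. Shares over the whole array moved too, so these counts are no result about the members alone. The share of tested probe sets with a higher mean in RST was 34.7%, but 55.1% with centred arrays, 48.4% after quantile normalization and 12.9% with hybridization scaling. It was 42.4% without RST mouse 4. Of all genes, 2.92% were higher and 13% lower at that p, or 5.39% and 6.83% without RST mouse 4.

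Tal1 changed sign from -0.12 to 0.18 after quantile normalization, 0.15 with centred arrays, 0.37 with array weights, and, with single mice left out, ranged over -0.44 to 0.54, with 0.54 without RST mouse 4 and 8.1e-05 without Control mouse 1. Nfe2 changed sign to -0.093 with scaling to the hybridization controls. The other 8 genes kept their direction under all alternatives, Klf1 at 0.41 to 1.39, Gata1 at 0.32 to 0.98, Lmo2 at 0.12 to 0.72, Foxo3 at 0.23 to 0.83, Zfpm1 at 0.06 to 0.77, Bcl11a at -0.99 to -0.27, Ldb1 at -0.90 to -0.20 and Gfi1b at -0.73 to -0.05. Erythroid minus shared members was 0.13 to 0.69 when single mice were left out, and 0.07 without Control mice 1 and 2. The cause of these shifts was not tested. With the replicate number as a block, 4234 probe sets reached that unadjusted p and fold and 0 passed the adjusted threshold, and 0 of the 4 RST arrays correlated best with the Control array of its own number.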
